A study of Caenorhabditis elegans with 2 samples.

Results

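The genes described here encode the translation factors of Caenorhabditis elegans, the soluble proteins that start and extend protein chains on the ribosome. They were chosen by symbol: every protein-coding gene whose name begins with eif-, eef-, ife-, ifg- or iff-, together with drr-2. This gave 40 genes of 19973 protein-coding genes on the nuclear chromosomes. By name, 32 were classed as initiation factors and 6 as elongation factors. The 2 iff- genes encode eIF5A, which was named as an initiation factor but acts in elongation, and they were kept apart.

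The data are ChIP-seq peak lists for RBR-2, a KDM5-type demethylase, an enzyme that removes methyl groups from lysine 4 of histone H3. The material was whole hermaphrodites of strain OP195, a transgenic line with a GFP-FLAG tag on the C terminus of RBR-2. The animals were L4 larvae taken 56 hours after release from starvation-synchronised L1. The labels give 1 group with 2 biological replicates and no second genotype, stage or treatment, so no groups of animals could be compared. The description names an antibody against GFP and the antibody field names rbr-2, so whether untagged RBR-2 adds to the signal is not known. The promoter of the transgene is not given in the labels, and in whole animals binding in few cells cannot be told apart from weak binding in many.

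Initiation begins when eIF2 carries the initiator tRNA to the small ribosomal subunit, with eIF1, eIF1A and eIF3 bound to that subunit. The guanine nucleotide exchange factor eIF2B recharges eIF2, and the cap-binding protein eIF4E, the scaffold eIF4G and the RNA helicase eIF4A with its cofactor eIF4H bring the messenger RNA. In elongation eEF1A delivers each aminoacyl-tRNA, the eEF1B subunits recharge eEF1A, eEF2 moves the ribosome along and eIF5A helps at difficult peptide bonds. C. elegans has 5 genes for eIF4E, pairs of genes for eEF1A and eIF5A, and messenger RNAs that are often trans-spliced, so the annotated start of a gene is often not where transcription begins.

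The DNA under 6 of the summits is printed first. The sites at iff-2, drr-2, eef-1A.2 and eef-1A.1 are shown because they are among the strongest of the family. Each sequence is 91 bases centred on the summit, from the ce11 genome of RefSeq, read 5′ to 3′ on the strand of the named gene. Only sites whose 91 bases lie outside protein-coding genes are shown, and not every such site. Capitals mark matches, on either strand, to any of the 7 short motifs described further on. The last pair, with weaker peaks, is shown because these are the eIF4E genes that had one.
iff-2 (chrII:8561381-8561471, minus strand): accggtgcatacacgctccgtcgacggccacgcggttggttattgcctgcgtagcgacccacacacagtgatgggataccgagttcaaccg
drr-2 (chrIII:13643686-13643776, minus strand): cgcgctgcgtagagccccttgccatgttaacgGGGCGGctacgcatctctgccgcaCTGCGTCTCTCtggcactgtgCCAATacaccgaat
eef-1A.2 (chrX:7823244-7823334, plus strand): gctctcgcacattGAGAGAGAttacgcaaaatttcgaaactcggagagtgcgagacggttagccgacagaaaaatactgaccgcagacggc
eef-1A.1 (chrIII:6972069-6972159, minus strand): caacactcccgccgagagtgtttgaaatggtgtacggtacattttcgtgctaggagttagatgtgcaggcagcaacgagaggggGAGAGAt
ife-2 (chrX:382891-382981, minus strand): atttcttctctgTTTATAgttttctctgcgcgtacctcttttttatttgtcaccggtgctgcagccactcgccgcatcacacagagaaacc
ife-4 (chrX:1103896-1103986, plus strand): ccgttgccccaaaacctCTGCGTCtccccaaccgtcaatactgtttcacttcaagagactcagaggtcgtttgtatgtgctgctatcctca

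A gene was counted as bound when the summit of a peak in the authors' optimal list lay within 500 bp of its annotated 5′ end. That list holds the 3442 peaks kept by the irreproducible discovery rate (IDR) procedure, which compares the ranking of peaks between replicates. Of the 40 translation factor genes, 22 were bound (55.0%, exact Clopper-Pearson 95% interval 38.5 to 70.7%), beside 9.46% of all protein-coding genes. The interval covers counting error only, since genes are not replicates. By the same count 65 of 81 cytosolic ribosomal protein genes were bound (80.2%) and 6 of 31 aminoacyl-tRNA synthetase genes (19.4%). These shares stand side by side with no test of the differences.

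All 6 elongation factor genes were bound (interval 54.1 to 100%), 15 of 32 initiation factor genes (46.9%, interval 29.1 to 65.3%) and 1 of the 2 eIF5A genes. The difference between initiation and elongation was not tested. The deposited signal measures how strong the caller found a peak, on a scale the sources do not state, and it is used here to describe and rank regions within a list. Signals of different lists are printed side by side but are not on a common scale. It had a median of 344 at elongation factor genes and 112 at bound initiation factor genes. The ranges overlapped, with 83.8 to 419 for elongation and 65.4 to 681 for initiation. Over all 22 bound members the median was 133, beside 126 over all 1890 bound genes, and 12 of the 22 lay above that genome-wide median. The whole family was therefore close to other bound genes in median signal. Peaks in the stronger 50% of the list lay at 5 of the 6 elongation factor genes (83.3%) and at 7 of 32 initiation factor genes (21.9%). The share was 5.32% of all protein-coding genes.

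**Figure D1:**
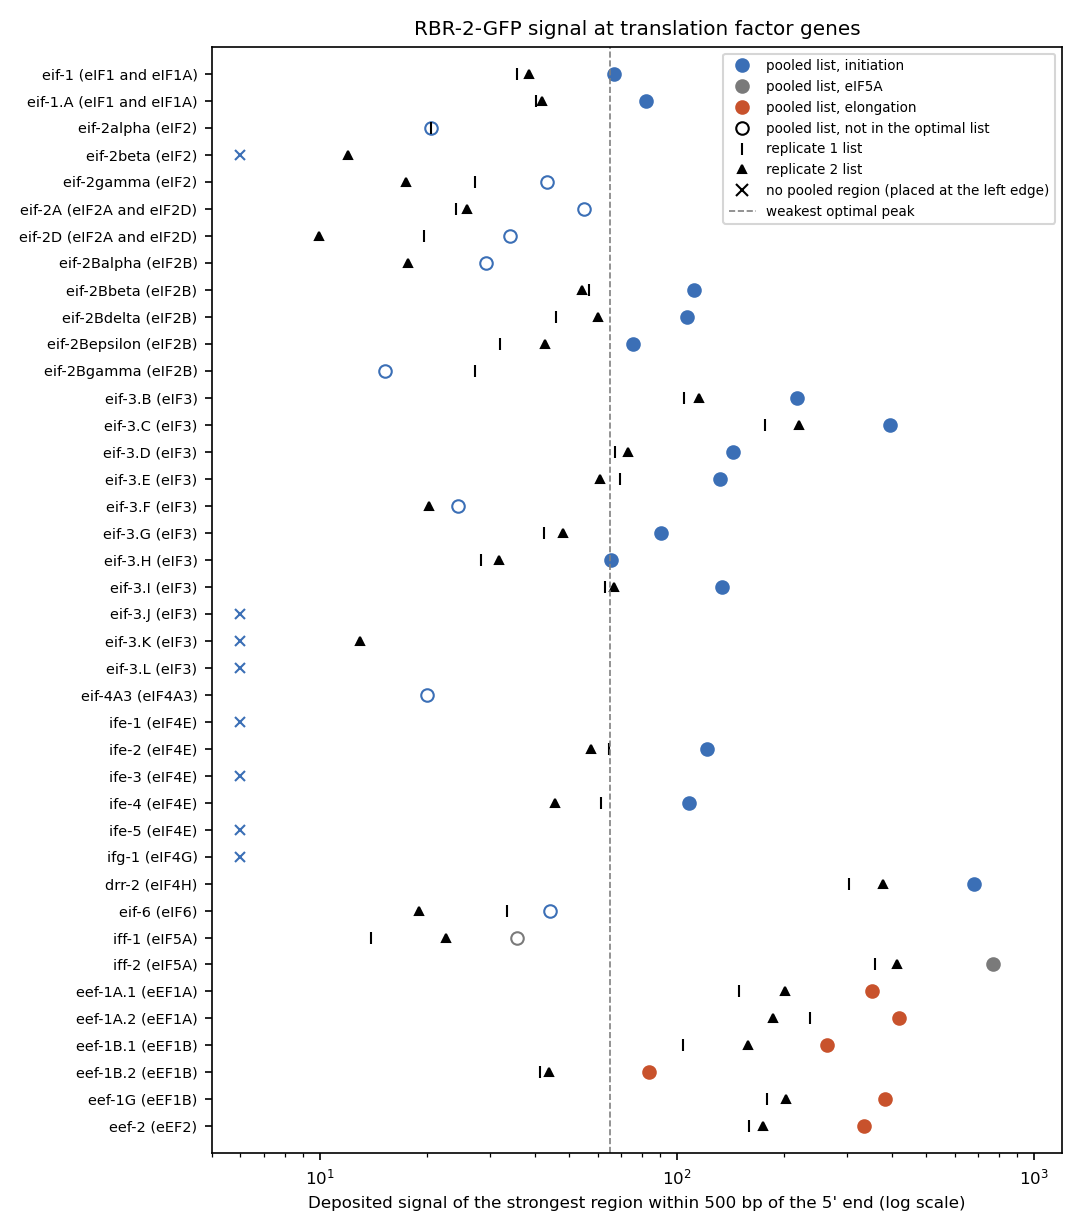
Deposited signal (log scale) of the strongest region within 500 bp of the 5′ end of each of the 40 genes, in the pooled list (circles, filled where the region is in the optimal list) and in each replicate list (bar and triangle); the dashed line is the weakest optimal peak, 65.2, and applies to the circles only, because each list has its own scale. The elongation factor circles are all filled, while the eIF2 genes and ife-1, ife-3, ife-5 and ifg-1 have open circles or crosses.

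The eEF1A genes had strong peaks far upstream. At eef-1A.2 (chromosome X, 7823654 to 7825769) the signal was 236 in replicate 1, 186 in replicate 2 and 419 in the pooled data. At eef-1A.1 (chromosome III, 6970026 to 6971712) it was 149 in replicate 1, 201 in replicate 2 and 352 in the pooled data. The order of the 2 genes thus differed between replicates, with eef-1A.2 higher in replicate 1 and eef-1A.1 in replicate 2, and the data do not rank one above the other. Their summits lay 365 bp and 402 bp upstream of the annotated starts, and neither peak would count within 250 bp. The eef-1A.1 summit was nearer to rfc-4, a replication factor C subunit gene on the opposite strand, so its target could not be assigned to one gene. The genes are near-identical paralogs, and every stretch of 36 bases in both peaks occurs once in the genome; the read length is not known, and misplaced reads were not tested.

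All 3 genes for eEF1B, the exchange factor of eEF1A, were bound. The eef-1G gene, for the gamma subunit, had a signal of 179 in replicate 1, 202 in replicate 2 and 384 pooled, with its summit 37 bp upstream. At eef-1B.1 the values were 104, 158 and 264 in the same order, with the summit 7 bp upstream and inside an annotated noncoding RNA, F54H12.9. Its paralog eef-1B.2 was the weakest of the elongation factor genes, at 41.4 in replicate 1, 44.0 in replicate 2 and 83.8 pooled, with its summit 145 bp upstream. Both replicates placed eef-1B.2 below eef-1B.1. The 5′ end of a divergent neighbour lay outside the peak but within 500 bp of the summit at eef-1G (ctf-4) and eef-1B.1 (aco-2, mitochondrial aconitase). The window of eef-1B.2 held no other gene.

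The gene for the translocase, eef-2 (chromosome I, 9163531 to 9166952), had a signal of 159.8 in replicate 1, 175 in replicate 2 and 335 pooled. Its summit was 13 bp upstream, with clsp-1 on the other side of the peak. Leaving eef-1B.2 aside, the 5 remaining elongation factor genes ranked between 143 and 394 in the optimal list. Among the strongest regions of each replicate they ranked between 82 and 587 in replicate 1 and between 186 and 316 in replicate 2.

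The strongest and the weakest paralog of a pair stood far apart for eIF5A. The highest signal of the whole family was at iff-2 (chromosome II, 8559375 to 8561367), with 359 in replicate 1, 414 in replicate 2 and 771 pooled, rank 42 of the optimal list. Its peak ran from 8561262 to 8561628, with the summit 59 bp upstream and no other gene in the window. At iff-1 (chromosome III, 9745862 to 9747193) a region outside the optimal list had 13.9 in replicate 1, 22.6 in replicate 2 and 35.6 pooled. In rank the pair stood at 35 and 13433 in replicate 1 and at 46 and 7328 in replicate 2, so iff-2 was far above iff-1 in both. As background, iff-1 is known for its role in the germ line and iff-2 for broad somatic expression.

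The 5 eIF4E genes also divided into bound members and members with no region at all. The bound pair were ife-2 (64.7 in replicate 1, 57.7 in replicate 2, 121 pooled) and ife-4 (61.6, 45.7 and 108), both on the X chromosome. No region of the pooled or of either replicate list, background included, lay within 500 bp of ife-1, ife-3 or ife-5. As background, ife-1, ife-3 and ife-5 are known as germline forms of eIF4E, and ife-2 and ife-4 as forms of somatic tissues. How binding relates to the tissue of expression was not tested here. The windows of ife-1, ife-3 and ife-5 consist wholly of 36-base stretches found once in the genome.

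Among the genes of the cap-binding and scanning machinery, drr-2 (chromosome III, 13642420 to 13643570), for the eIF4H homolog, was the strongest. It had a signal of 304 in replicate 1, 378 in replicate 2 and 681 pooled, and ranked 54 in each of the replicate lists and in the pooled list. Its peak, from 13643553 to 13643927, covered the annotated starts of both drr-2 and set-16, a divergent histone H3 lysine 4 methyltransferase gene. The summit was 161 bp from the drr-2 start and nearer to it than to set-16. The same peak (681 pooled) also counted for set-16, so its target could not be assigned to one gene. The scaffold gene ifg-1, for eIF4G, had no region in any list within 500 bp, although an optimal peak lay within 1000 bp. The divergent gene M110.3, 605 bp upstream of ifg-1, was itself bound (85.9), and whether this was the same peak was not examined. Of the related genes outside the symbol rule, inf-1, for eIF4A, had 29.2 in replicate 1 and 47.3 in replicate 2, and the strongest pooled region in its window had 17.5. The small-subunit factors eif-1 (35.7, 38.5 and 66.7 pooled) and eif-1.A (40.2, 42.0 and 81.8) were both bound, with summits 392 and 386 bp upstream. In the optimal list eif-1.A ranked 2585 and eif-1 ranked 3347, the latter close to the weakest peak (65.2).

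eIF3, the largest initiation factor, had 7 of 11 genes bound (63.6%, interval 30.8 to 89.1%). The strongest was eif-3.C (chromosome I, 9976426 to 9979662), with 177 in replicate 1, 219.5 in replicate 2 and 396 pooled, followed by eif-3.B with 105, 115 and 218. Then came eif-3.D (67.3, 72.8 and 144), eif-3.I (63.0, 66.6 and 134) and eif-3.E (69.5, 61.1 and 132), whose order differed between replicates. The weakest were eif-3.G (42.6, 47.9 and 90.3) and eif-3.H (28.2, 31.7 and 65.4). The eif-3.H peak was rank 3433 of 3442 and was not among the 3442 strongest regions of either replicate. Of the others, eif-3.F had a weak pooled region (24.4), and eif-3.J, eif-3.K and eif-3.L had none. At eif-3.L only 3.73% of the 36-base stretches in the window occur once in the genome. It is counted as unbound in all shares given here, but whether it lacks binding could not be judged. egl-45, the gene for the largest eIF3 subunit, lies outside the symbol rule and had 31.6 in replicate 1, 24.8 in replicate 2 and 63.8 pooled, just below the weakest optimal peak.

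None of the 3 eIF2 genes was bound, and 3 of 5 eIF2B genes were. The pooled signal was 43.4 at eif-2gamma and 20.5 at eif-2alpha, the subunit that stress kinases phosphorylate, and no pooled region lay at eif-2beta. At eif-2alpha 89.2% of the 36-base stretches of the window are unique. Of eIF2B, the bound genes were eif-2Bbeta (56.9 in replicate 1, 54.2 in replicate 2, 112 pooled), eif-2Bdelta (45.8, 60.0 and 107) and eif-2Bepsilon (31.9, 42.7 and 75.4). Unbound were eif-2Balpha (29.2 pooled) and eif-2Bgamma (15.2 pooled). Neither the regulatory subunits (alpha, beta, delta) nor the catalytic pair (gamma, epsilon) were bound as a block. With at most 5 genes per complex, the exact intervals were wide, reaching 70.8% for eIF2 and starting at 14.7% for eIF2B. They cover counting error only, and the difference between the 2 complexes was not tested.

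The remaining initiation factor genes were unbound. They had pooled signals of 55.0 at eif-2A and 34.0 at eif-2D, whose products can bring tRNA to the ribosome without eIF2 in mammals, 44.1 at eif-6, which keeps the ribosomal subunits apart, and 19.997 at eif-4A3, a helicase of the exon junction complex. At eif-6 the region was inside the strongest 3442 of replicate 1 (33.4, rank 3285) and outside those of replicate 2 (19.0, rank 10001). In all, 10 of the 18 unbound members had a pooled region in the window and 8 had none. A pooled region of any strength was thus present at 32 of 40 members, beside 33.1% of all protein-coding genes.

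The count depended on the window and the list, but the members stayed above all genes in each setting examined. Within 250 bp 14 members were bound (35.0%), beside 6.06% of all genes, and within 1000 bp 25 (62.5%), beside 12.3%. Those lost within 250 bp were eef-1A.1, eef-1A.2, eif-1, eif-1.A, eif-3.C, eif-3.G, eif-3.H and ife-4, and those gained within 1000 bp were eif-2Bgamma, eif-3.J and ifg-1. In the stronger 50% of the list 13 remained (32.5%), beside 5.32%, and 5 of these were elongation factor genes. When each peak counted only for its nearest gene, 16 members were bound (40.0%), beside 7.42%. The 5′ ends of all transcripts gave the same 22 members, beside 10.3%. The 3442 strongest regions of replicate 1 alone bound 21 members, beside 9.42%, and those of replicate 2 alone bound 21, beside 9.05%.

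**Figure D2:**
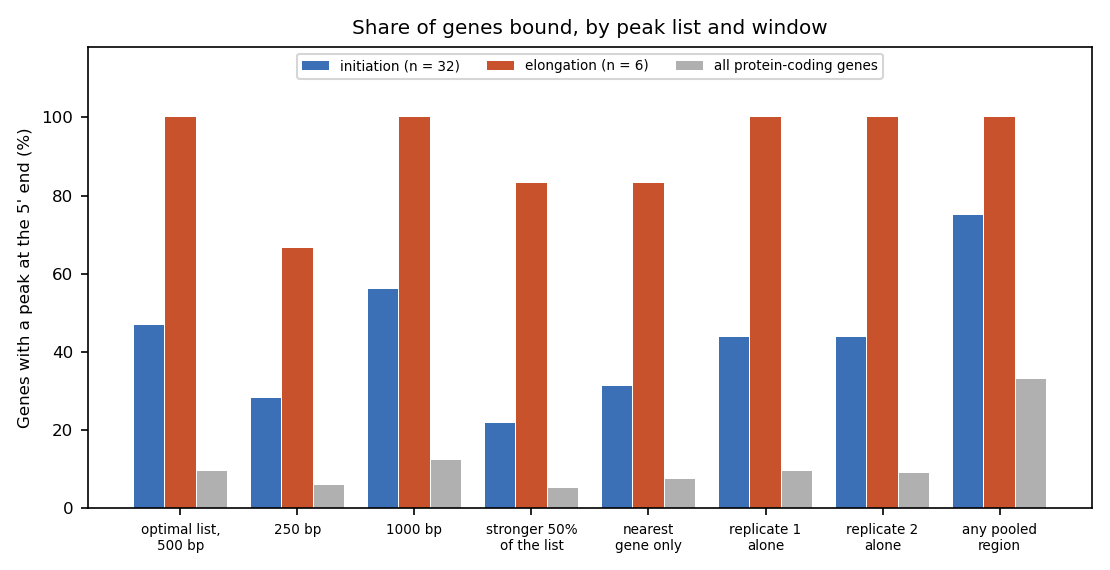
Percentage of genes with a peak at the 5′ end (vertical axis) for initiation factor genes, elongation factor genes and all protein-coding genes, under 8 choices of peak list and window (horizontal axis). Elongation factor bars run from 66.7% within 250 bp to 100%, initiation factor bars from 21.9% in the stronger 50% of the list to 75.0% for any pooled region, and the grey bars from 5.32 to 33.1%.

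All 22 summits lay upstream of the annotated start and outside protein-coding genes, beside 90.1% upstream among all bound genes. The median summit position was -222 bp from the start, where negative is upstream, compared with -181 bp for all bound genes. By complex, the eEF1A summits lay 365 to 402 bp upstream, the eIF1 and eIF1A summits 386 to 392 bp and the 7 eIF3 summits 195 to 334 bp. The eIF4E summits lay 227 to 271 bp upstream, the eIF2B summits 37 to 166 bp and the eEF1B summits 7 to 145 bp, and that of eef-2 lay 13 bp upstream. Distances over 250 bp were found at 8 of 22 members (36.4%), beside 36.6% of all bound genes, and distances up to 100 bp at 5 (22.7%), beside 20.2%. Differences in position between complexes were not tested.

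**Figure D3:**
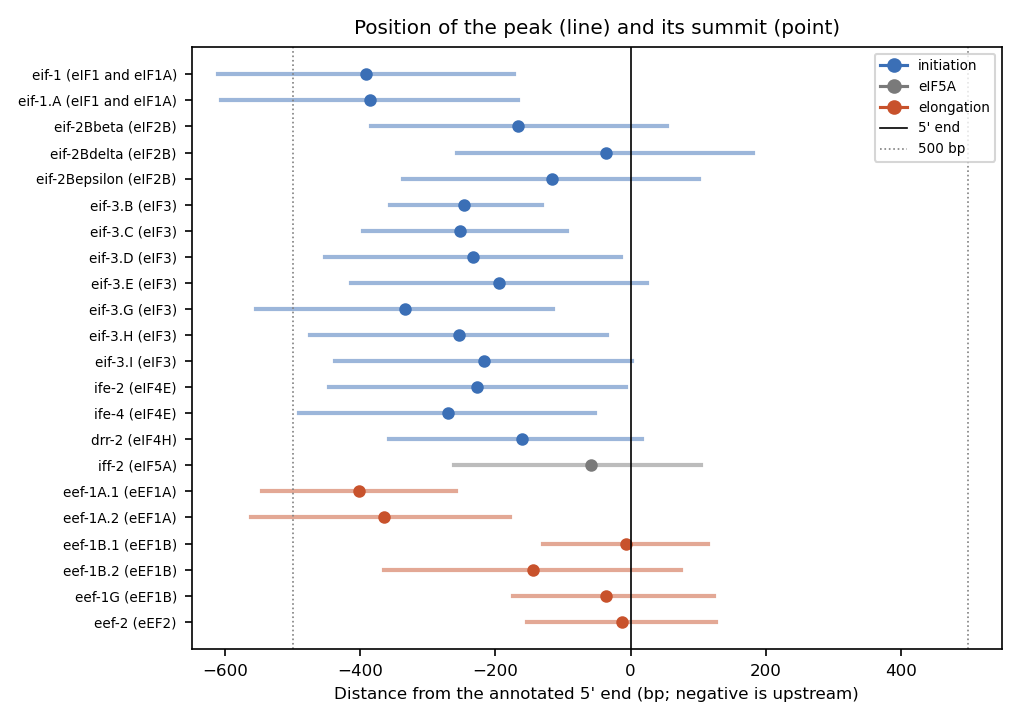
Position of each optimal peak (line) and its summit (point) relative to the annotated 5′ end of the 22 bound genes, in bp on the horizontal axis with upstream to the left. Every summit is left of zero, from 7 bp (eef-1B.1) to 402 bp (eef-1A.1) upstream.

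Another protein-coding 5′ end lay within 500 bp of the summit at 11 of the 22 bound members (50%), beside 43.2% of all bound genes. At 16 of the 22 the translation factor gene was the nearest gene, beside 1482 of all 1890 bound genes that were the nearest gene of a peak. At eef-1A.1, eif-1, eif-2Bbeta, eif-2Bepsilon, eif-3.D and eif-3.H the neighbour was nearer. The closest upstream gene was on the same strand and within 500 bp, a layout found in worm operons, at 2 of 22 bound members (eif-3.C and eef-1B.2) and at 5 of 18 unbound ones (eif-2alpha, eif-2gamma, eif-2Bgamma, eif-3.F and ife-5). Over all genes the shares were 13.2% of bound and 18.6% of unbound genes. Among these same-strand neighbours, phb-1 upstream of the unbound eif-2alpha was itself bound (signal 90.04). So was sys-1 upstream of the bound eif-3.C (92.5). The neighbours of eif-2gamma, eif-2Bgamma, eif-3.F, ife-5 and eef-1B.2 were not bound. Operon membership was not annotated in the files used, and its part in the result was not tested.

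The replicates ranked the bound members alike. Across the 22 genes the replicate signals had a Spearman rho of 0.967 and their log2 values a Pearson r of 0.976, given as a description because the peaks were selected from the same 2 libraries. A summit within 200 bp among the strongest 3442 regions of both replicates was found for 20 of the 22. The exceptions were eif-3.H, with none in either replicate, and eif-2Bepsilon, with none in replicate 1. The same share was not computed over all bound genes, and the optimal list was derived from these lists. The count is therefore a description and not a trait of this family. The 2 strongest members, iff-2 and drr-2, kept that order in both replicates, while eif-3.D, eif-3.I and eif-3.E changed order between them. The printed value was higher in replicate 2 at 17 of 19 autosomal members and at 0 of 3 on the X chromosome (ife-2, ife-4 and eef-1A.2). Among the peaks compared it was higher at 66.4% on autosomes and 69.7% on X. The lists have separate scales, and this difference was not tested.

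**Figure D4:**
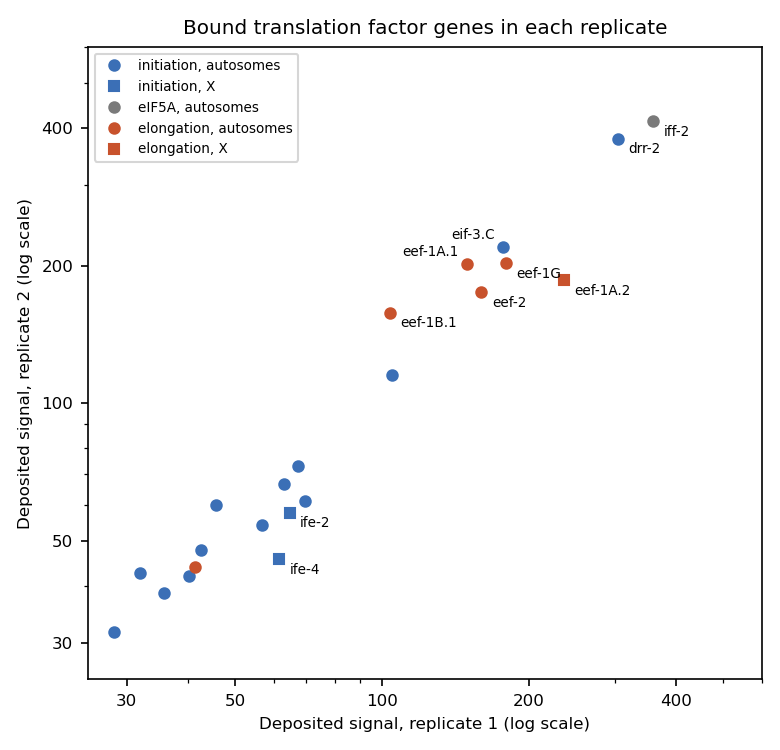
Deposited signal in replicate 1 (horizontal) and replicate 2 (vertical) at the 22 bound genes, both on log scales and each on the scale of its own list, with circles for autosomes and squares for the X chromosome. The points rise together (Spearman rho 0.967), with iff-2 and drr-2 at the top right.

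Sequence under the summits was compared with that of other bound genes. The GC content within 100 bp of the summit had a median of 41.3% at bound members and 41.8% over all bound genes. It ran from 28.9% at eif-2Bepsilon to 53.2% at eef-1A.2, and all 3 eIF2B genes were among the lowest. Motifs were searched on both strands from 250 bp upstream to 50 bp downstream of the 5′ end. GAGAGA was present at 5 of 22 bound members (22.7%), among them both eEF1A genes and drr-2. It was present at 30.6% of all bound genes and 21.8% of all promoters. TATAAA was present at 8 (36.4%), beside 37.9% of all promoters, and CCAAT at 9 (40.9%), beside 45.5%. CCGCCC and CTGCGTC were each present at drr-2 only among the bound members, beside 7.83% and 4.34% of all promoters, and TTCCCGC at iff-2 only, beside 3.22%. CACGTG was present at none of the 40 members, at 4.92% of all bound genes and at 5.82% of all promoters.

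The printed sequences show where matches to these motifs fall relative to the summit, which need not be the matches counted in the promoter window. That window ends 250 bp upstream of the start, short of the summit at 8 of the 22 bound members. Both printed eEF1A stretches lie wholly outside it, so their GAGAGA matches are not those counted in the promoter window. The printed TATAAA of ife-2 and CTGCGTC of ife-4 also lie outside it. The drr-2 stretch holds CTGCGTC overlapping the reverse complement of GAGAGA, with CCGCCC on the opposite strand and CCAAT nearby. Within 100 bp of the summit GAGAGA was found at 6 of 22 members (27.3%), beside 31.7% of all bound genes, and CTGCGTC at drr-2 and ife-4 (9.09%, beside 14.7%). The iff-2 stretch, under the strongest peak of the family, holds none of the 7 motifs. No motif searched was thus more frequent among bound members than among all bound genes, apart from TATAAA (18.2% within 100 bp of the summit, beside 14.1%; 36.4% in the promoter window, beside 31.0%) and CCAAT in the promoter window (40.9%, beside 40.2%). These counts are a description of letters, with no test.

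Other genes of translation and its control that lie outside the symbol rule were also counted. They included initiation factor genes such as egl-45 and inf-1 and mitochondrial factor genes, so they are not only partners of the family. Of 26 such genes found in the annotation, 8 were bound (30.8%, beside 9.46% of all genes). In the stronger 50% of the list 2 remained (7.69%, beside 5.32%). The strongest was pab-2, for a poly(A)-binding protein (122 in replicate 1, 126 in replicate 2, 249 pooled). The other pab- gene counted, pab-1, was not bound (32.5 in replicate 1, 24.0 in replicate 2, 53.1 pooled). Both termination factor genes were bound, erfa-3 (39.1, 63.2 and 110) and erfa-1 (29.6, 41.1 and 70.9). The mitochondrial elongation factor genes tufm-2 (49.2, 60.6 and 116), gfm-1 (54.5, 47.9 and 104) and tufm-1 (45.4, 45.6 and 89.0) were bound as well, while tsfm-1 had no pooled region. The last 2 were daf-15, a partner of the TOR kinase (83.1 pooled), and gcn-1, an activator of an eIF2 kinase (69.9 pooled). Of the unbound companion genes 11 had a pooled region and 7 had none. Among the former, the eIF2 kinase genes pek-1 (64.8 pooled) and gcn-2 (63.2 pooled) were just under the weakest optimal peak. No pooled region lay at let-363, the TOR kinase gene, at rsks-1, the S6 kinase gene, or at dhps-1 and dohh-1, whose products modify eIF5A.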

How the data were processed

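Per the text deposited with the files, the authors called peaks and background regions on ce11 for each replicate and for both replicates together, each with a control, and derived the optimal list from those lists by IDR. Not given in the sources used here are the aligner, peak caller, versions and threshold. Each deposited signal value has no stated scale; it ranks regions within a list only. Peak lists hold no read counts, so the depth and the precision of a single signal are unknown, and the control reads were not analysed here. Lists on ce10 were not used, since the annotation at hand is ce11 (WBcel235).

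The optimal list was found to equal the 3442 strongest of 30000 pooled regions; the replicate lists held 26742 and 28724. Summits were compared with gene starts of Ensembl release 115 in Python 3.11.15 (pandas 2.3.3, scipy 1.17.1), taking the strongest region in each window, and sequences came from the RefSeq genome. Assignment, motif search and 36-base uniqueness were tested on simulated data. The read length is not given here, so 36 bases is an arbitrary choice. No test across genes was made. Every member is named, with replicate values for the 8 strongest and all elongation factor genes. Of 29 companion names 3 matched no gene. Members, lists and settings were chosen with earlier results of these data known.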

Additional observations from a re-analysis of the deposited data

How the results depend on the processing

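Counts of bound genes mostly stayed within 1.5 times of those reported when the window, list or assignment was changed. Larger moves were seen in 3 settings. In the stronger 50% of the list initiation factor genes fell to 7 (21.9%), members to 13 (32.5%) and companion genes to 2 (7.69%). The share of all protein-coding genes was 5.32%, so the companion genes were then near it. Within 250 bp the counts were 14 members (35.0%), 9 initiation factor genes (28.1%), 4 eIF3 genes (36.4%) and 5 companion genes (19.2%), beside 6.06% of all genes. With any pooled region they were 24 initiation factor genes (75.0%), both eIF5A genes (2) and 19 companion genes (73.1%), beside 33.1% of all genes. Without one replicate, members numbered 21 in either case (range 21 to 21), initiation factor genes 14, elongation factor genes 6, eIF5A genes 1, eIF3 genes 6 and companion genes 8 to 11. The share of all protein-coding genes was then 9.05 to 9.42%. The median signal of bound members was 335 in the stronger 50%, 139 within 250 bp and 176 with the nearest gene only, and 66.6 to 67.3 in a single replicate, whose list has its own scale. Sharing of summits between replicates at 100 or 500 bp gave 20 members each. No paired analysis was possible because the labels give 1 group. With 2 replicates and no read counts, the spread of a single signal rests on 2 values.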
